A study of Homo sapiens with 4 samples.

Results

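The Hippo pathway is a kinase cascade that restrains 2 transcriptional coactivators, YAP1 and its paralog TAZ, which is encoded by WWTR1. Upstream kinases activate LATS1 and LATS2, which phosphorylate both coactivators and thereby keep them in the cytoplasm or send them for degradation. Unphosphorylated YAP1 and TAZ enter the nucleus, bind DNA through the TEAD factors and raise targets such as CYR61, CTGF and ANKRD1, and the targets AMOTL2 and LATS2 in turn inhibit the pathway's output. The pathway responds to cell density, adhesion and cytoskeletal tension, and in prostate cancer it is known for its link to growth and invasion.

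From this pathway 10 genes, of the 17634 in the count table, were selected by symbol: LATS1, LATS2, YAP1, WWTR1, TEAD1, TEAD4, CYR61, CTGF, ANKRD1 and AMOTL2. CYR61 and CTGF are the older names of CCN1 and CCN2. They were followed in PC-3 cells, a line from a bone metastasis of prostate cancer. PC-3-RRM2 cells carried a lentiviral vector encoding RRM2, the small subunit of ribonucleotide reductase, and PC-3-EV cells carried the empty vector (n = 2 libraries each). PC-3-RRM2 was a stable line held under puromycin selection, and neither the labels nor the study's methods say whether libraries of a group came from separate transductions or cultures. A p-value here is therefore set against library-to-library variation alone, and that variation may be technical.

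Estimated counts summed to 30149181 and 30419769 in PC-3-RRM2, against 37801301 and 30778321 in PC-3-EV. RRM2 itself was at 96.6 and 98.8 CPM in PC-3-RRM2 and at 21.8 and 20.8 CPM in PC-3-EV, where CPM is the edgeR unit of counts scaled to a common library size after TMM normalisation. Among markers of the line, the keratin KRT8 averaged 116 ± 24.4 CPM in PC-3-RRM2 and 115 ± 12.3 CPM in PC-3-EV (SD, n = 2 each). Levels are averages over the cells of a library, so fewer cells expressing a gene and less RNA of it per cell cannot be told apart.

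Calls followed the thresholds of the study: a gene was called higher or lower in PC-3-RRM2 where its fold change exceeded 1.5 and its adjusted p was under 0.05. The test was the quasi-likelihood test of edgeR, adjusted by Benjamini-Hochberg over all 15781 genes tested. All 10 genes passed the filter on low counts. CYR61 and ANKRD1 rose, WWTR1 fell, and the other 7 were not called. The 3 calls of 10 compare with 18.2% of all genes tested, the 2 rises with 9.97% and the single fall with 8.19%. Whatever the fold change, the adjusted p was under 0.05 for 5 of the 10 genes, against 34.2% of all genes. YAP1, one of these 5, had an adjusted p of 0.175 with the replicate number as a block (edgeR). With the numbers crossed between groups, a block chosen after seeing the data, it was 0.000646 (edgeR). It was 0.0478 with RLE and 0.0414 with upper-quartile factors (edgeR), 0.0424 with DESeq2 and 0.0456 with limma-voom. YAP1 no longer passed without PC-3-EV replicate 1 (log2 fold change -0.23) or 2 (-0.31), and still passed without PC-3-RRM2 replicate 1 (-0.16) or 2 (-0.31). The libraries of the 2 groups did not overlap for 7 of the 10, against 69.0% of all genes. The median log2 fold change of the 10 was 0.20, beside 0.00037 over all genes tested.

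**Figure D1:**
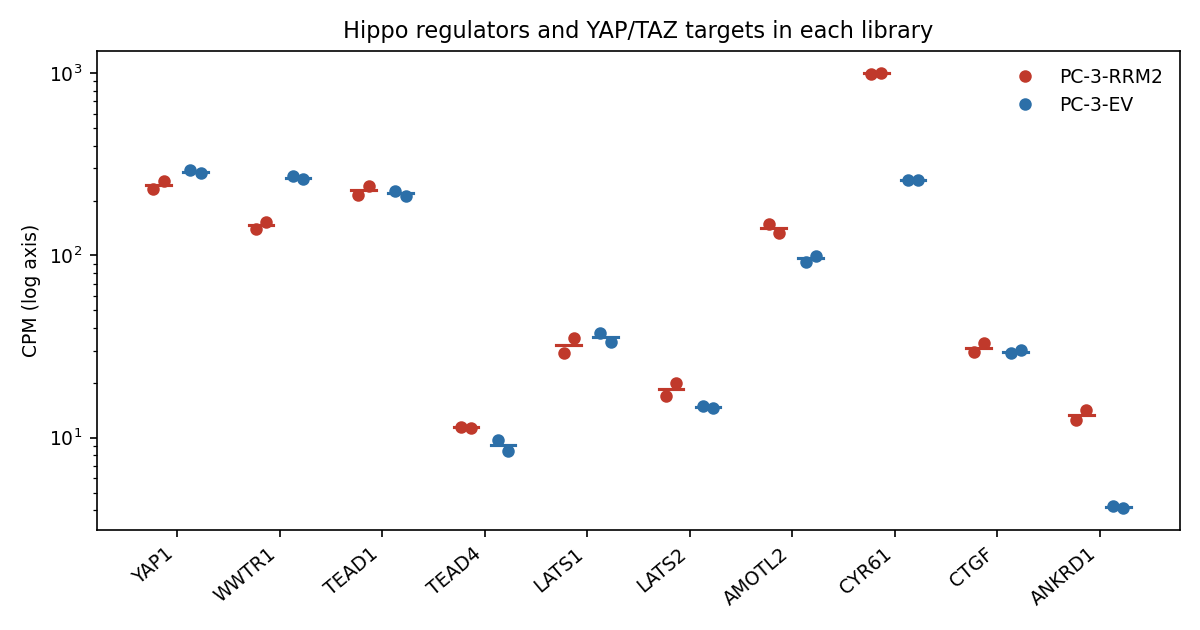
Level of each of the 10 genes in every library, in CPM on a log axis, with PC-3-RRM2 in red and PC-3-EV in blue. Points are libraries and short lines are group means (n = 2 each). CYR61 and ANKRD1 sit higher in both PC-3-RRM2 libraries, WWTR1 sits lower, and the groups overlap for TEAD1, LATS1 and CTGF.

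Of the coactivators, WWTR1 fell and YAP1 was not called, and the difference between their fold changes was not tested. WWTR1, which encodes TAZ (chromosome 3, 149517229 to 149724788, minus strand, GRCh38), had 140 and 153 CPM in PC-3-RRM2, against 272 and 262 CPM in PC-3-EV. Both PC-3-RRM2 libraries were thus below both PC-3-EV libraries, and the level was 45.0% lower (log2 fold change -0.86, SE 0.0764, edgeR adjusted p = 0.000152). An antisense gene, WWTR1-AS1, overlaps it and held 34 counts over the 4 libraries, where WWTR1 held at least 4259 in each. The paralog YAP1 (chromosome 11, 102110461 to 102233423, plus strand) had 232 and 257 CPM in PC-3-RRM2, against 294 and 282 CPM in PC-3-EV. The groups did not overlap, and the level was 15.1% lower (log2 fold change -0.24, 95% interval -0.42 to -0.056, edgeR adjusted p = 0.0490), a difference that did not reach the fold threshold.

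YAP1 made up a larger share of the coactivator transcripts in both PC-3-RRM2 libraries than in either PC-3-EV library. Divided by the length of its principal transcript in GENCODE release 29, YAP1 made up 60.7% and 61.0% of the summed YAP1 and WWTR1 level in the PC-3-RRM2 libraries, against 50.2% and 50.2% in the PC-3-EV libraries. In the empty-vector cells the 2 genes thus stood at near-equal levels, 53.5 ± 1.48 CPM per kilobase for YAP1 and 53.1 ± 1.49 CPM per kilobase for WWTR1 (SD, n = 2). In PC-3-RRM2 they stood at 45.4 ± 3.30 and 29.2 ± 1.86 CPM per kilobase (SD, n = 2). No test of such a share was made. With 2 libraries a group, the smallest two-sided p of an exact permutation test is 0.333.

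WWTR1 and several targets are also expressed in stromal and endothelial cells. Of 7 endothelial markers, 4 were tested and 4 were lower in PC-3-RRM2 (PECAM1, KDR, ROBO4 and ESAM), where 8.19% of all genes tested were lower. Their summed levels were 37.6 to 37.8 CPM in PC-3-RRM2 and 79.8 to 80.8 CPM in PC-3-EV. PECAM1 averaged 9.27 CPM in PC-3-RRM2 and 23.6 CPM in PC-3-EV, and KDR 20.0 CPM in PC-3-RRM2 and 32.5 CPM in PC-3-EV. The endothelial markers that were not tested were near 0 in all libraries. CDH5 had 6 and 9 counts in PC-3-RRM2 and 0 and 0 in PC-3-EV, VWF had 4 and 4 against 2 and 1, and TEK had 2 and 3 against 2 and 3. Of 8 fibroblast markers, 5 were tested, of which 1 was higher (LUM) and 2 were lower (COL3A1 and PDGFRA), against 9.97% and 8.19% of all genes. Their sums were 71.7 to 97.6 CPM in PC-3-RRM2 and 90.8 to 107 CPM in PC-3-EV. COL3A1 was not called without PC-3-RRM2 replicate 2 (log2 fold change -0.59), PC-3-EV replicate 1 (-0.84) or PC-3-EV replicate 2 (-0.77), nor ESAM without PC-3-RRM2 replicate 2 (-0.66) or PC-3-EV replicate 2 (-0.70). DESeq2 called neither (adjusted p = 0.143 for COL3A1 and 0.0947 for ESAM). The fibroblast gene COL1A1, not called, averaged 68.2 CPM in PC-3-RRM2 and 72.1 CPM in PC-3-EV, while DCN had 4 to 9 counts in every library. Of 6 leukocyte markers, 2 were tested and 0 called. PTPRC had 9 to 18 counts in every library, and CD68 averaged 99.4 CPM in PC-3-RRM2 and 105 CPM in PC-3-EV. The part of these markers in the fall of WWTR1 and in the rises of CYR61 and ANKRD1 was not tested.

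The DNA-binding partners were not called. TEAD1, the most abundant TEAD transcript here, had 216 and 241 CPM in PC-3-RRM2, against 225 and 213 CPM in PC-3-EV, with overlapping groups. Its log2 fold change was 0.06, with a 95% interval of -0.13 to 0.25 (edgeR adjusted p = 0.593). TEAD4 had 11.5 and 11.4 CPM in PC-3-RRM2, against 9.68 and 8.50 CPM in PC-3-EV. The libraries of TEAD4 did not overlap, but it was not called on 260 to 366 counts per library (log2 fold change 0.33, 95% interval 0.025 to 0.64, edgeR adjusted p = 0.0895). Per kilobase of transcript, TEAD1 took 66.2% and 70.5% of the summed TEAD1 to TEAD4 level in PC-3-RRM2, against 68.2% and 68.1% in PC-3-EV. TEAD4 took 6.44% and 6.06% in PC-3-RRM2, against 5.35% and 4.94% in PC-3-EV, so both PC-3-RRM2 libraries were the higher ones. The TEAD shares depend on the transcript chosen for TEAD1, whose longest form has 8477 bases against 3075 for the principal form.

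The LATS kinases were likewise not called. LATS1 had 29.2 and 35.1 CPM in PC-3-RRM2, against 37.7 and 33.6 CPM in PC-3-EV, and the groups overlapped (log2 fold change -0.15, 95% interval -0.42 to 0.13, edgeR adjusted p = 0.367). LATS2, which is both a kinase and a YAP/TAZ target, had 17.0 and 20.0 CPM in PC-3-RRM2, against 14.9 and 14.5 CPM in PC-3-EV. The libraries of LATS2 did not overlap, and the log2 fold change of 0.33 missed the threshold (95% interval 0.051 to 0.62, edgeR adjusted p = 0.0686). Per kilobase, LATS1 took 55.7% and 56.3% of the summed LATS level in PC-3-RRM2, against 65.0% and 63.0% in PC-3-EV. The paralogs were therefore closer to equal in both PC-3-RRM2 libraries than in either PC-3-EV library.

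**Figure D2:**
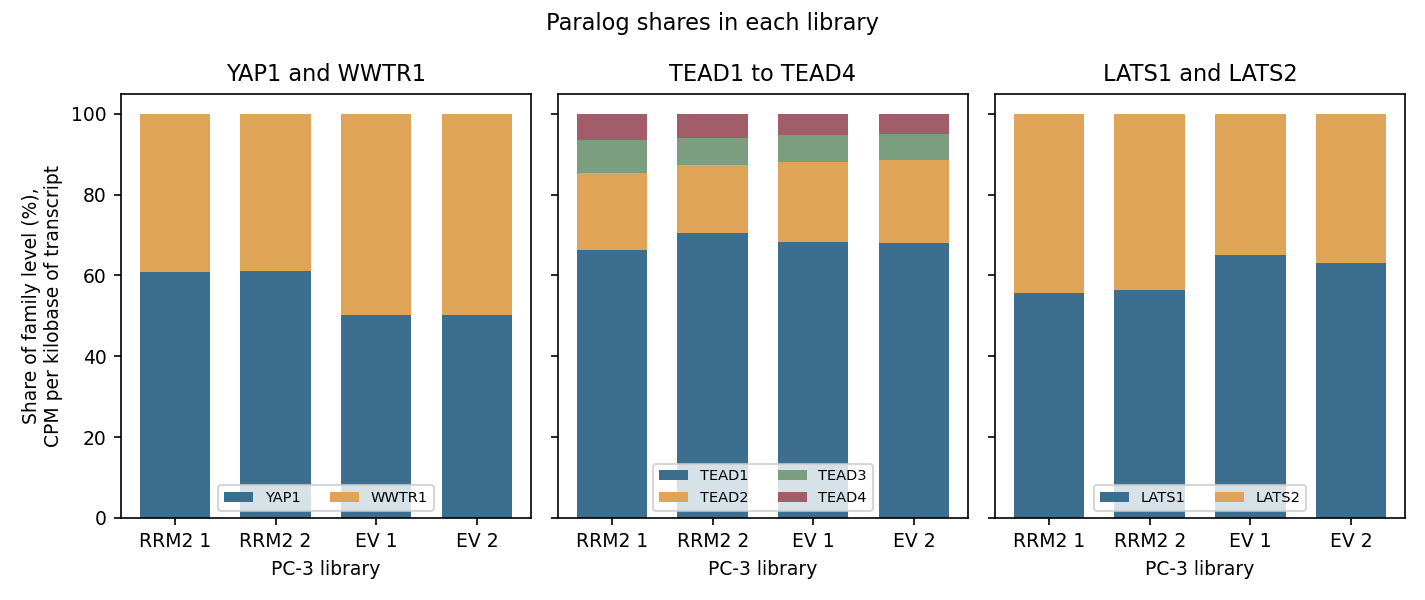
Share of each paralog in the summed level of its family, in percent of CPM per kilobase of the principal transcript, with 1 bar per library. YAP1 takes 60.7% and 61.0% in the PC-3-RRM2 libraries against 50.2% in each PC-3-EV library, LATS1 takes 55.7% and 56.3% in PC-3-RRM2 against 65.0% and 63.0% in PC-3-EV, and TEAD1 holds 66.2% to 70.5% in every library.

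Among the targets, CYR61 and ANKRD1 rose more than 3-fold, while CTGF and AMOTL2 were not called. CYR61, a secreted matricellular protein that binds integrins (chromosome 1, 85580761 to 85583965, plus strand), had 985 and 1008 CPM in PC-3-RRM2, against 260 and 259 CPM in PC-3-EV. The libraries of a group lay close together and far from the other group, and the rise was 3.84-fold (log2 fold change 1.94, SE 0.0698, edgeR adjusted p = 1.84e-06), which ranked 35 by p among all genes tested. The row lies inside 5 rows of multi-copy U1 small RNAs whose coordinates run across several loci, each with 183 counts over the 4 libraries. ANKRD1, a cardiac-type ankyrin repeat protein used as a YAP/TAZ reporter gene (chromosome 10, 90912100 to 90921275, minus strand), had 382 and 429 counts in PC-3-RRM2, against 160 and 126 counts in PC-3-EV. At 12.6 and 14.1 CPM in PC-3-RRM2, against 4.23 and 4.12 CPM in PC-3-EV, the groups did not overlap, and the rise was 3.20-fold (log2 fold change 1.68, SE 0.142, edgeR adjusted p = 0.000123). CTGF, the closest relative of CYR61 among these genes and a matricellular protein too (chromosome 6, 131948177 to 131951378, minus strand), had 29.5 and 32.9 CPM in PC-3-RRM2, against 29.1 and 30.3 CPM in PC-3-EV, with overlapping groups. Its log2 fold change was 0.07 with a 95% interval of -0.16 to 0.30 (edgeR adjusted p = 0.611), so the interval's upper end lay under the fold threshold.

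The CYR61 to CTGF ratio per kilobase of transcript was 34.1 and 31.3 in PC-3-RRM2, against 9.13 and 8.72 in PC-3-EV. The ratio of CYR61 to ANKRD1 was 67.7 and 61.6 in PC-3-RRM2, against 53.0 and 54.3 in PC-3-EV. The first ratio thus differed far more between the groups than the second. AMOTL2, an angiomotin-family scaffold that binds YAP1 and is itself a target (chromosome 3, 134355345 to 134375417, minus strand), had 149 and 133 CPM in PC-3-RRM2, against 92.6 and 99.9 CPM in PC-3-EV. The groups did not overlap and the adjusted p passed (edgeR adjusted p = 0.00218), but the 1.47-fold difference stayed under the fold threshold (log2 fold change 0.56, SE 0.0853). Without PC-3-RRM2 replicate 2 the log2 fold change was 0.64 and AMOTL2 was called.

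**Figure D3:**
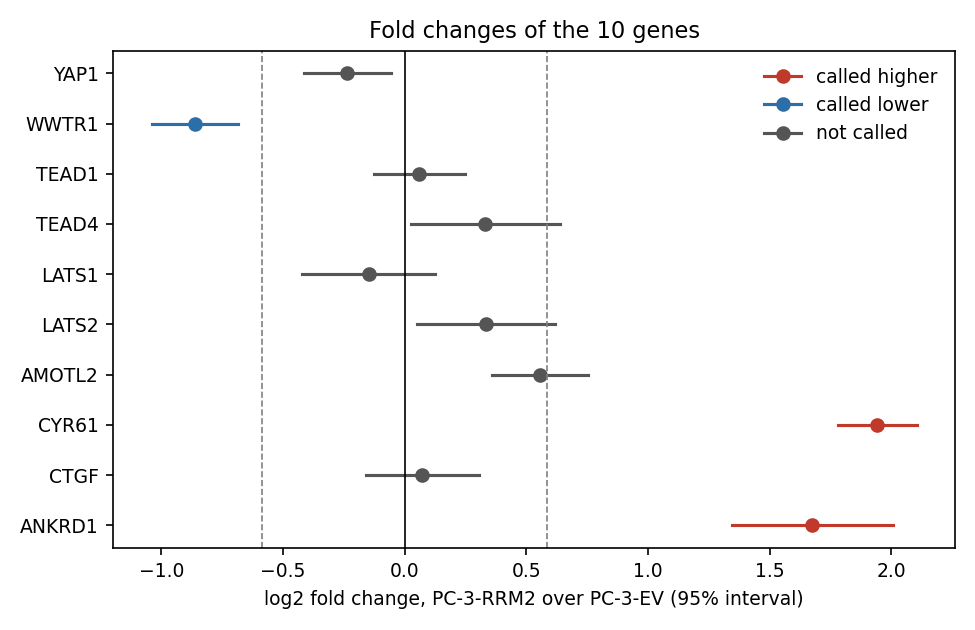
Log2 fold change of each of the 10 genes, PC-3-RRM2 over PC-3-EV, with its 95% interval from the edgeR fit. Dashed lines mark a fold change of 1.5 each way. CYR61 and ANKRD1 lie beyond the upper line, WWTR1 beyond the lower one, and AMOTL2 just inside the upper one.

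TEAD factors recognise a short motif, GGAATG or CATTCC on the other strand, and the promoter of CTGF is a textbook example of it. Matches in members that rose and that were not called are shown side by side for that reason. The RefSeq promoter set (GRCh38.p14) held windows for 7 of the 10 genes, and CYR61, TEAD1 and TEAD4 were not among them. In the 250 bases before the start site, the motif was searched on both strands, and 4 of the 7 genes had at least 1 match. Some genes had more than 1 window, and by window 4 of 10 held a match. A match is only a description of the letters. Among 35116 promoter windows of this length, 11.9% held at least 1 match, 0.940% at least 2 and 0.0826% at least 3. CTGF, which was not called, held 3, which began 169, 104 and 95 bases before the start. Its 250 bases (chr6:131951373-131951622, minus strand) read as follows, with the matches in capitals.
CTGF: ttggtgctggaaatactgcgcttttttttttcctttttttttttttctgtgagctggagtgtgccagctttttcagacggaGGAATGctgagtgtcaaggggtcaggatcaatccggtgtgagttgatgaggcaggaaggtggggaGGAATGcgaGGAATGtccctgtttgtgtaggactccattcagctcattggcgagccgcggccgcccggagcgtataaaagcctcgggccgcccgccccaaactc

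ANKRD1, which rose, held 2 matches, 220 and 128 bases before the RefSeq start. GENCODE release 29 places that start 189 bases further upstream, so the nearer match falls in its first exon. AMOTL2 held 1 match before its inner start site, within a GENCODE exon, and YAP1 held 1. LATS1 and LATS2 held 0 in the windows searched, and the bases just after the LATS2 start held 1. WWTR1 held 0 too, but its 2 RefSeq windows lie 33441 and 78689 bases from its GENCODE start. These 4 matches are shown with 12 bases on each side, from chr10:90921290-90921319 and chr10:90921198-90921227 (both minus strand), chr3:134374499-134374528 (minus strand) and chr11:102110273-102110302 (plus strand).
ANKRD1 outer match: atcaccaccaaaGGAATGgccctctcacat
ANKRD1 inner match: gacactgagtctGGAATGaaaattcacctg
AMOTL2 match: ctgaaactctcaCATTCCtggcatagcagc
YAP1 match: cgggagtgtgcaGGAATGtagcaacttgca

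AP-1 factors often bind beside TEAD at YAP/TAZ targets, and a loose form of their motif, TGANTCA with any base as N, was searched too. This pattern was found once in ANKRD1, apart from its TEAD matches, and once in 1 of the 2 LATS1 windows. The matches read TGATTCA in ANKRD1 and TGAATCA in LATS1. Neither had the G or C that the usual AP-1 site has in the middle. The loose pattern was in 6.57% of all windows and in no other window of the 7 genes.

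In order of level per kilobase of transcript, CYR61 came first in both groups, at 435 ± 6.98 CPM per kilobase in PC-3-RRM2 and 113 ± 0.265 CPM per kilobase in PC-3-EV (SD, n = 2 each). In PC-3-RRM2 it was followed by TEAD1, YAP1, AMOTL2, WWTR1, CTGF, TEAD4, ANKRD1, LATS1 and LATS2, where the libraries of AMOTL2 and WWTR1 overlapped and so did those of TEAD4 and ANKRD1. In PC-3-EV the order was CYR61, TEAD1, YAP1, WWTR1, AMOTL2, CTGF, TEAD4, LATS1, LATS2 and ANKRD1, where only the neighbours YAP1 and WWTR1 overlapped. The place of TEAD1 rests on the transcript chosen: with the longest transcripts, an alternative added after seeing the data, it came after WWTR1 in PC-3-RRM2, at 26.9 ± 2.09 CPM per kilobase, and after WWTR1 in PC-3-EV, at 25.8 ± 0.951 CPM per kilobase (SD, n = 2 each). ANKRD1 was thus the lowest of the 10 in PC-3-EV, at 2.11 ± 0.0394 CPM per kilobase, and stood above both LATS genes in PC-3-RRM2, at 6.75 ± 0.559 CPM per kilobase.

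The genes whose centred log2 CPM over the 4 libraries lay nearest to that of CYR61 were PTK2B, TTC39A and N4BP2L1, at Euclidean distances of 0.0589, 0.0933 and 0.0977. PTK2B, a focal adhesion kinase relative, averaged 26.2 CPM in PC-3-RRM2 and 6.95 CPM in PC-3-EV. Nearest to CTGF were FAM122B, NAB1 and EMBP1, at distances of 0.0107, 0.0143 and 0.0148, and the groups overlapped for each of these too. EMBP1 was below 1 CPM in both groups.

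Beyond the 10 genes, 8 lists of related genes held 108 genes, of which 103 were tested. Of these, 15 were higher (14.6%, against 9.97% of all genes) and 5 were lower (4.85%, against 8.19%), with a median log2 fold change of 0.15. The other targets were examined first. From a YAP/TAZ target signature derived across cancers, 16 further genes were tested, and 5 rose, 0 fell and 11 stayed uncalled, at a median of 0.16 on the log2 scale. TGFB2, a TGF-beta ligand, was at 376 ± 14.1 CPM in PC-3-RRM2 and 70.7 ± 1.15 CPM in PC-3-EV (SD, n = 2 each), a 5.33-fold rise. F3, the tissue factor that starts coagulation, rose 4.03-fold, the IGF-binding protein IGFBP3 2.31-fold and the matrix-associated gene CCDC80 2.18-fold. The fifth was the kinase NUAK2, with a 2.57-fold rise, which was named after its value was seen. The other 11 ran from -0.56 for DOCK5 to 0.57 for RBMS3 on the log2 scale, and both of these reached the fold threshold when 1 library was left out (DOCK5 at -0.65 without PC-3-RRM2 replicate 2 and -0.61 without PC-3-EV replicate 2, RBMS3 at 0.69 without PC-3-RRM2 replicate 1).

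Of the other CCN family genes, 3 of 4 were tested. Of these, 1 was higher and 1 lower, against 9.97% and 8.19% of all genes. NOV, also called CCN3, had 39.5 ± 4.37 CPM in PC-3-RRM2 and 80.4 ± 3.57 CPM in PC-3-EV (SD, n = 2 each), a fall with a log2 fold change of -1.02. WISP2, also called CCN5, rose on few counts, 51 and 24 in PC-3-RRM2 against 5 and 0 in PC-3-EV (edgeR adjusted p = 0.00546). WISP1 was not called.

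Among TEAD paralogs and VGLL cofactors, which compete with YAP1 and TAZ for TEAD, 5 genes were tested, and 2 rose, 0 fell and 3 stayed uncalled, at a median of 0.24 on the log2 scale. Over all genes tested, 9.97% rose and 8.19% fell. VGLL3 rose 1.57-fold, to 20.05 ± 1.81 CPM in PC-3-RRM2 against 12.7 ± 0.211 CPM in PC-3-EV (SD, n = 2 each), and was not called without PC-3-RRM2 replicate 2 (log2 fold change 0.56). VGLL1 had 16 and 12 counts in PC-3-RRM2 and 0 and 0 in PC-3-EV, a level at least 10.5-fold higher when 3 counts over both libraries stand in for the 0 of PC-3-EV. Without PC-3-RRM2 replicate 1, VGLL1 was not among the genes called. TEAD2 (log2 fold change -0.12) and TEAD3 (0.24) were not called, nor was VGLL4 (-0.02).

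The upstream kinases mostly stayed under the threshold. Of 15 Hippo kinases and adaptors tested, 1 was called lower and 0 higher, at a median of 0.09 on the log2 scale. Over all genes tested, 8.19% were lower and 9.97% higher. The summed level of the 15 was 3112 to 3340 CPM in PC-3-RRM2 and 4000 to 4113 CPM in PC-3-EV. Most of it was MAP4K4, at 2020 CPM in PC-3-RRM2 and 2881 CPM in PC-3-EV, a log2 fold change of -0.51 that missed the fold threshold. MAP4K1 was the gene called lower, on 8 and 5 counts in PC-3-RRM2 against 24 and 28 in PC-3-EV. It was not called without PC-3-RRM2 replicate 2 (log2 fold change -1.53) or PC-3-EV replicate 2 (-1.60), nor by DESeq2 (adjusted p = 0.100). Of 11 parts of STRIPAK, a phosphatase complex that opposes the upstream kinases, 1 rose, 0 fell and 10 were not called (median 0.10). It was STK24, 1.56-fold higher. Of 11 factors that retain or degrade phosphorylated YAP1 and TAZ, 0 were called and the median was -0.03. The most abundant, the phosphoprotein-binding YWHAZ, had 1824 ± 129 CPM in PC-3-RRM2 and 1748 ± 29.6 CPM in PC-3-EV (SD, n = 2 each), and YWHAB had 427 ± 25.4 CPM in PC-3-RRM2 and 472 ± 23.9 CPM in PC-3-EV.

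Polarity and junction scaffolds, through which cell contact feeds into the pathway, had 25 tested genes, and 3 rose, 2 fell and 20 stayed uncalled, at a median of 0.21 on the log2 scale. These calls lay near the shares over all genes tested, 9.97% higher and 8.19% lower. CRB3, an apical polarity protein, had 290 and 172 counts in PC-3-RRM2, against 8 and 3 in PC-3-EV, and rose by 5.54 on the log2 scale (edgeR adjusted p = 7.53e-05). The scaffold WWC2 rose 1.52-fold. FAT1, an atypical cadherin, fell to 61.8 ± 4.95 CPM in PC-3-RRM2, against 109 ± 4.88 CPM in PC-3-EV (SD, n = 2 each), and the phosphatase PTPN21 had a log2 fold change of -0.68. WWC2 was not called without PC-3-RRM2 replicate 2 (0.58) or PC-3-EV replicate 2 (0.51), nor PTPN21 without PC-3-RRM2 replicate 1 (-0.58). WWC1, known as KIBRA, and SCRIB were called only when 1 library was left out or, for WWC1, with a stricter filter (WWC1 at 0.65 without PC-3-RRM2 replicate 2, SCRIB at -0.76 without PC-3-RRM2 replicate 1).

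Cytoskeletal targets of SRF, a factor that shares several targets with YAP1, moved in both directions. Of 18 genes tested, 1 fell, 3 rose and 14 stayed uncalled, at a median of 0.36 on the log2 scale. The shares over all genes were 8.19% lower and 9.97% higher. The tropomyosin TPM1 rose 2.16-fold and the myosin light chain MYL9 2.70-fold. The smooth muscle actin ACTG2 rose on few counts, 20 and 31 in PC-3-RRM2 against 4 and 2 in PC-3-EV. ZYX, a focal adhesion protein, fell to 238 ± 57.4 CPM in PC-3-RRM2, against 649 ± 59.8 CPM in PC-3-EV (SD, n = 2 each, log2 fold change -1.45). Calls of 2 further genes rested on leaving out a library, ACTG1 (0.66 without PC-3-RRM2 replicate 2 and 0.59 without PC-3-EV replicate 2) and TPM2 (-0.75 without PC-3-RRM2 replicate 1 and -0.68 without PC-3-EV replicate 1).

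**Figure D4:**
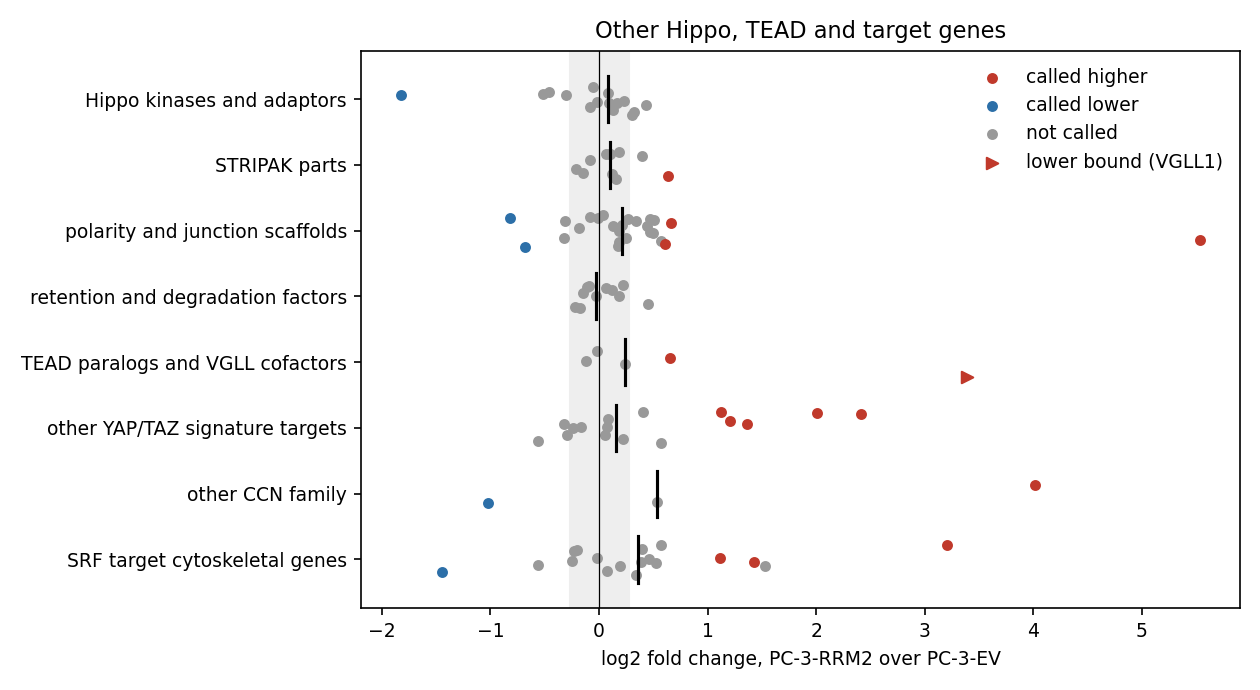
Log2 fold change of each tested gene in the 8 related lists, PC-3-RRM2 over PC-3-EV. Points are genes, red where called higher and blue where called lower, black ticks are list medians, the grey band is the middle 50% of all genes tested, and the triangle is VGLL1 at its lower bound. The other targets hold 5 called genes to the right and 0 to the left, and the upstream kinases hold 1 to the left.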

How the data were processed

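Total RNA of 4 libraries was sequenced, and the authors made the estimated counts per gene in Partek Flow before they deposited them, without normalization. For the Partek version, read aligner, gene annotation and strandedness, the entry is "not given in the sources used here". Between 56.0% and 57.7% of a library's values were whole, at a tolerance of 1e-09. The table's coordinates matched GRCh38: of 16499 symbols shared with RefSeq, 99.8% overlapped the gene of the same name. The table's last column of coordinates lay 1 base past the RefSeq end more often than on it (5169 against 619 genes), and 1 was subtracted.

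Counts were rounded, filtered with filterByExpr, scaled by TMM and tested with edgeR 4.0.16 in R 4.3.3. The standard error was the log2 fold change divided by the square root of F, and intervals are 95% intervals from it. The test was tested on simulated data with the same dispersion for every gene, in which only genes above a floor of expected counts were changed. The outcome is not reported here, and such data do not bear on calls that rest on few counts. Replicates differed by more than sampling noise (chi-square per degree of freedom 15.1 for PC-3-RRM2 and 5.86 for PC-3-EV). The bound for a gene with 0 counts in a group covers only the counting error of that group. Counts of the other group were taken as exact, and reads are not independent molecules.

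The 10 genes and all lists were chosen with earlier results of these data known. Named genes were the 10, RRM2, up to 4 called genes each way per list by smallest p, or, in a list without a call, the 2 most abundant genes by mean CPM, and the 3 nearest patterns to CYR61 and CTGF. List genes given beside these, including those whose call changed on leaving out a library and those listed as not called, were named after their values were seen. PTPN14 was in 2 lists. Some listed genes are counted but not reported here by name. Alternatives were RLE and upper-quartile factors, DESeq2 1.42.0, limma-voom (limma 3.58.1), glmTreat, 2 other filters, a replicate block and leaving out each library.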

Additional observations from a re-analysis of the deposited data

How the results depend on the processing

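CYR61, ANKRD1 and WWTR1 were called in the same direction in all 13 alternatives, with log2 fold changes of 1.89 to 1.96, 1.59 to 1.76 and -0.94 to -0.80. YAP1, TEAD1, TEAD4, CTGF, LATS1 and LATS2 were called in 0 of 13, and AMOTL2 in 1. Leaving out 1 library gave 0.47 to 0.64 for AMOTL2, -0.29 to -0.020 for LATS1, 0.21 to 0.45 for LATS2, 0.20 to 0.41 for TEAD4 and -0.31 to -0.16 for YAP1, and turned the sign of 2 values near 0, TEAD1 (-0.024 to 0.14; -0.021 without PC-3-RRM2 replicate 2) and CTGF (-0.0099 to 0.15). No scaling moved the median of all genes by 0.1. Adding the replicate number as a block left 2 members higher and 1 lower, with 1628 and 1396 of all genes. Across genes, the deviations of same-numbered libraries were weakly and negatively correlated (-0.27). A crossed replicate block, chosen after seeing the data, gave 2 and 1 members and 1722 and 1531 genes. The labels share only the number, and the cause was not tested.

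The test against a fold change of 1.5 (glmTreat) called 781 genes higher and 479 lower, against 1574 and 1292, since it asks for more. In it 0 STRIPAK parts, 1 polarity scaffold and 1 TEAD or VGLL gene were higher, and 0 Hippo kinases and 1 polarity scaffold were lower. With CPM of at least 1 in 2 libraries, which drops low genes, 1 TEAD or VGLL gene and 0 other CCN genes were higher and 0 Hippo kinases lower. DESeq2 called 0 Hippo kinases lower. On leaving out 1 library, 1 to 3 polarity scaffolds and 1 to 2 TEAD or VGLL genes were higher, and 0 to 1 Hippo kinases, 0 to 1 other targets and 1 to 2 SRF targets were lower. Without division by length, YAP1 took 62.5% in PC-3-RRM2 and 51.9% in PC-3-EV, TEAD1 74.6% and 74.5%, and LATS1 63.5% and 70.8%. With the longest transcripts, YAP1 took 50.1% in PC-3-EV, and TEAD1 45.6% in PC-3-RRM2 and 45.5% in PC-3-EV. Calls of VGLL1, WISP2, ACTG2 and MAP4K1 rest on at most 51 counts in every library.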

Other observations

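The surroundings of the 10 genes were described from the same fit. Of the tested genes with any part within 1 Mb of TEAD1, which was not called, 5 of 9 were higher in PC-3-RRM2 (DKK3, LINC02547, MICAL2, MICALCL and USP47) and 0 lower, with a median log2 fold change of 0.79. Around CTGF, also not called, 5 of 14 were higher and 0 lower (median 0.34). Around WWTR1, which fell, 1 of 18 was higher (AGTR1) and 1 lower (CP), with a median of 0.15. Around CYR61, which rose, 2 of 15 were higher (DDAH1 and SYDE2) and 1 lower (CLCA1), with a median of 0.13. Around ANKRD1, which rose too, 1 of 6 was higher (HTR7) and 0 lower, with a median of 0.14. Around AMOTL2 1 of 8 was higher (RAB6B), around LATS1 3 of 18 (PPP1R14C, RAET1K and ULBP2) and around LATS2 1 of 15 (SKA3), with 0 lower and medians of 0.39, 0.24 and 0.42. Around YAP1, 1 of 12 was higher (BIRC3) and 1 lower (MMP13), and around TEAD4 0 of 9 were called. Across all genes tested 9.97% were higher and 8.19% lower. Rows whose coordinates run across several loci were left out, and these neighbours were named after their values were seen.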
